A study of Mus musculus with 4 samples.

Results

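The proteasome genes of CD11b-positive brain cells are described here across 4 single-cell libraries. The members are the genes whose symbol starts with Psma, Psmb, Psmc, Psmd, Psme, Psmf or Psmg followed by a digit, without names that end as pseudogenes, and with at least 50 UMIs (tagged RNA molecules) over the 4 matrices. Of 32285 genes in the files 49 met this rule. The thymic catalytic subunit Psmb11 held 2 UMIs and stayed out, and the lowest members inside the limit were Psmc3ip with 343 UMIs and Psma8 with 365. The members comprise 8 alpha and 4 structural beta subunits of the core particle, 3 constitutive and 3 inducible catalytic beta subunits, 6 ATPases and 11 other subunits of the regulatory particle, 3 chaperones of its base and 4 of the core, both subunits of PA28, 2 other activators and 1 inhibitor. The remaining pair only share the name pattern: Psmc3ip, a meiotic recombination factor, and Psme2b, a copy of Psme2.

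Each library came from 1 mouse. The wild-type (IL-6 +/+) and the knockout (IL-6 -/-) mice were taken 6 days after sham surgery or 6 days after cerebrovascular injury (CVI), made by low-intensity pulsed ultrasound through a thinned skull after intravenous microspheres. Mice were 8 to 12 weeks old at surgery. Cells came from a 4 mm biopsy punch, were freed of myelin and were selected with CD11b microbeads, and 3′ UMI libraries were made from them. One label places the control mice after sham surgery, whereas the extraction text calls them uninjured. A mild and a severe form of the injury are described without saying which was used, and the labels name neither the strain nor the deleted part of Il6. Il6 was read at 10.6 and 4.65 CPM (UMIs scaled to a total of 1000000) over the analysed cells of the sham and injured wild-type libraries and at 25.3 and 22.02 CPM in the knockout libraries. Since these 3′ tags need not lie in a deleted part they do not check the genotype, and these 2 libraries are called knockout-labelled. With 1 library per group no test across mice is given. A test of injury over both genotype labels was not run. Each interval is a 95% interval that covers counting error only, not differences between mice.

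The proteasome is the barrel-shaped protease that degrades ubiquitin-tagged proteins. Its core particle has active sites of 3 kinds, made by Psmb6, Psmb7 and Psmb5, and it is opened by the regulatory particle, whose ATPases unfold the substrate, or by activators such as PA28. Interferons induce Psmb9, Psmb10 and Psmb8, which replace Psmb6, Psmb7 and Psmb5 in newly assembled cores to form the immunoproteasome, and also induce PA28. The immunoproteasome is known for producing peptides for MHC class I and is found constitutively in many immune cells. The transcription factor Nfe2l1 raises the genes of the constitutive subunits when proteasome capacity is short.

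Promoters are shown for genes of both kinds, because the injury comparison sets them side by side. RefSeq windows of GRCm38.p6 run from 250 bases before to 50 after each gene start, and 41 of the 49 members had 1 or more, giving 44 windows. Psmb7 had none. Printed below are the first 280 bases, to 30 bases after the start, 5′ to 3′ on the gene's strand. Capitals mark a match on either strand to TTCNNNGAA, a gamma-activated site, in Psmb8 (chr17:34197945-34198224, + strand), and to GAAA, any 2 bases and GAAA, the core of an interferon-stimulated response element, in Psme1 (chr14:55578244-55578523, + strand). In Psmb6 (chr11:70525107-70525386, + strand) and Psmb5 (chr14:54617966-54618245, - strand) they mark TGANNNNGC, the core of an antioxidant response element. The GENCODE annotation, used here for overlaps between genes, starts Psmb8 at 34197721 and Psme1 at 55578123. By that annotation the printed windows of Psmb8 and Psme1 lie inside the genes.
Psmb8: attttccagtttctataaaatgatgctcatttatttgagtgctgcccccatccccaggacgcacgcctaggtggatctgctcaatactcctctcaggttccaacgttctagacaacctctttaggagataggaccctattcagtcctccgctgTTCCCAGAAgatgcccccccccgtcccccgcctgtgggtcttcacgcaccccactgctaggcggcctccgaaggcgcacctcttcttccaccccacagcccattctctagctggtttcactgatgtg
Psme1: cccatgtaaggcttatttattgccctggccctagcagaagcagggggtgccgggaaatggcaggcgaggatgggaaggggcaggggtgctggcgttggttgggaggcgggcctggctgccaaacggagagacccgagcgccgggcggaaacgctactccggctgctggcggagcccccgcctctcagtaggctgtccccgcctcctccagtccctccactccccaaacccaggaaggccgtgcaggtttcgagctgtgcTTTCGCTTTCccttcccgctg
Psmb6: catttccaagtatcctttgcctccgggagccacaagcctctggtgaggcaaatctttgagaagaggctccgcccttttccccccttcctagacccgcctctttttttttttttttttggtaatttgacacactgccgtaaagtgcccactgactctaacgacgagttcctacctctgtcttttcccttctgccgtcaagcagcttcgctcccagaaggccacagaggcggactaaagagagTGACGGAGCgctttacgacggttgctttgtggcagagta
Psmb5: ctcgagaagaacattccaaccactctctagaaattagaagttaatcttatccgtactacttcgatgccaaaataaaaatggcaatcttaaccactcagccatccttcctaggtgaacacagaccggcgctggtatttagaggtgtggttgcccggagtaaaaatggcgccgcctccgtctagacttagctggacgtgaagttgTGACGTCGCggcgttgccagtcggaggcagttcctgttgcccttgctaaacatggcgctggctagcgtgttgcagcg
Matches to these motifs do not overlap as marked. Of all 32851 windows of the table, 8.30% held TTCNNNGAA, and 3 of the 44 member windows did (Psmb8, Psmd2 and Psmg1). For the response element core the numbers were 3.44% of all windows and 5 of 44 (Psme1, Psmb3, Psmd4, Psmd9 and Psmg4). TGANNNNGC was in 41.3% of all windows and in 25 of 44 member windows. Psmb10 matched none of the 3 motifs, and Psmb9 and Psme2 matched TGANNNNGC only. Psmb8 also held 1 match to TGANNNNGC in its full window, which is not marked above. Windows of both catalytic kinds thus held this motif. A match is a description of letters and no evidence of binding.

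The libraries held 15222380 to 40336067 UMIs, and 957 to 2883 cells per library were analysed. Cells were put in a class by the number of its markers detected. The microglia gate (P2ry12, Tmem119, Sall1, Siglech, Fcrls, Gpr34, Olfml3, Slc2a5, of which at least 3 had to be detected and which had to lead all other lists) took 718 cells of the wild-type sham, 2228 of the wild-type injured, 1126 of the knockout-labelled sham and 2214 of the knockout-labelled injured library. The gate is a range of a score, and 3.64 to 7.54% of its cells lay at or next to its limit. Median UMIs of other lists' markers per gated cell were 0 to 2, except for the monocyte list (Ms4a7, Ccr2, F13a1, Plac8, Ly6c2, Lyz2, Clec12a), at 2 in both sham libraries and 16 and 7 in the wild-type and knockout-labelled injured ones. The summed monocyte level, nearly all of it Lyz2, was 605 CPM in wild-type sham, 7995 in wild-type injured, 389 in knockout-labelled sham and 2045 in knockout-labelled injured cells. All 7 of its markers had UMIs in 3 of these libraries, and Ly6c2 was at 0 in knockout-labelled sham cells. The neuron list (Snap25, Syt1, Meg3, Rbfox3, Stmn2) summed to 116, 14.7, 112 and 17.7 CPM in that order. The 8 microglia markers summed to 9106, 4728, 10288 and 6750 CPM. What these other markers contribute to the results below was not tested beyond the values given. The sham libraries shared 23 kept barcodes, with 1.56 to 2.20% as many UMIs in the shallower copy, and other pairs of libraries shared 1 or 2; without them no summed level, share or ratio of a named member moved beyond its counting interval. Median mitochondrial shares of gated cells were 4.05 to 4.67%.

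Proteasome genes took a larger share of microglial RNA after injury under both genotype labels. All members together held 0.356% of the UMIs of wild-type sham microglia-gated cells and 0.466% of injured ones, and 0.385% and 0.455% in the knockout-labelled pair. The change was uneven over the complex: the summed levels of each catalytic kind and of PA28 were 1.31-fold to 1.88-fold higher after injury, the rest of the core 1.37-fold (95% interval 1.34 to 1.40) and 1.19-fold (1.17 to 1.21), and the regulatory particle 1.08-fold (1.05 to 1.10) and 0.985-fold (0.965 to 1.01). A CPM is a share of all counted RNA, and each UMI is 1 molecule, so levels were not divided by gene length. Capture at the 3′ end can still differ between genes, and comparisons of level between genes carry that limit.

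Constitutive catalytic subunits summed to 288 CPM in wild-type sham, 483 in wild-type injured, 316 in knockout-labelled sham and 413 in knockout-labelled injured microglia-gated cells. Inducible ones summed to 330, 502, 378 and 545 CPM in the same order. So in sham tissue the inducible sum already lay above the constitutive one, although Psmb9 was below its partner Psmb6, and both sums were higher in both injured libraries. In the wild type the constitutive sum was 1.68-fold (1.60 to 1.75) and the inducible sum 1.52-fold (1.46 to 1.59) the sham level. In the knockout-labelled pair the ratios were 1.31 (1.26 to 1.36) and 1.44 (1.39 to 1.49). Because the monocyte marker Lyz2 moved with injury, the same was read in cells with both a Sall1 and a Siglech UMI, 2 genes known to be restricted to microglia among brain macrophages. There the wild-type log2 ratios were 0.61 for the constitutive sum, 0.67 for the inducible sum and 0.97 for PA28, beside 0.74, 0.61 and 0.85 in all microglia-gated cells. This choice did not remove the Lyz2 difference, which was 376 CPM in sham and 4646 in injured wild-type cells of the subset. Both Sall1 and Siglech also had UMIs in monocyte or macrophage-gated cells of the wild-type injured library.

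Within each kind the genes differed by unequal amounts. Psmb6, the caspase-like site, was read at 116 CPM in wild-type sham, 255 in wild-type injured, 118 in knockout-labelled sham and 195 in knockout-labelled injured cells. Both injured libraries lay above both sham libraries, 2.20-fold (2.06 to 2.36) in the wild type and 1.66-fold (1.56 to 1.77) under the knockout label. Psmb5, the chymotrypsin-like site, was at 97.7, 145, 117 and 134 CPM in the same order. Its wild-type ratio was 1.48 (1.37 to 1.60) and its knockout-labelled one 1.14 (1.07 to 1.22). Psmb7, the trypsin-like site, was at 75.0, 83.4, 81.7 and 83.5 CPM, with ratios of 1.11 (1.02 to 1.22) and 1.02 (0.944 to 1.11).

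Psmb8, the inducible counterpart of Psmb5, was the most abundant member in microglia-gated cells of the 4 libraries pooled, at 277 CPM. Its level was 177 CPM in wild-type sham, 300 in wild-type injured, 197 in knockout-labelled sham and 323 in knockout-labelled injured cells. The 2 injured libraries were again above both sham libraries, by 1.69-fold (1.60 to 1.79) and 1.64-fold (1.56 to 1.72). Psmb9, the counterpart of Psmb6, was at 59.6, 100.02, 77.8 and 107 CPM, and its ratios were 1.68 (1.52 to 1.85) and 1.38 (1.278 to 1.496). Psmb10, the counterpart of Psmb7, was at 92.7, 102, 103 and 115 CPM, with ratios of 1.10 (1.01 to 1.19) and 1.12 (1.04 to 1.20). The site of Psmb7 and Psmb10 was therefore the one at which neither partner reached 1.5-fold under either label. Psmb9 overlaps Tap1 on the opposite strand, and the sources used here do not give the strand setting of the counting.

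**Figure D1:**
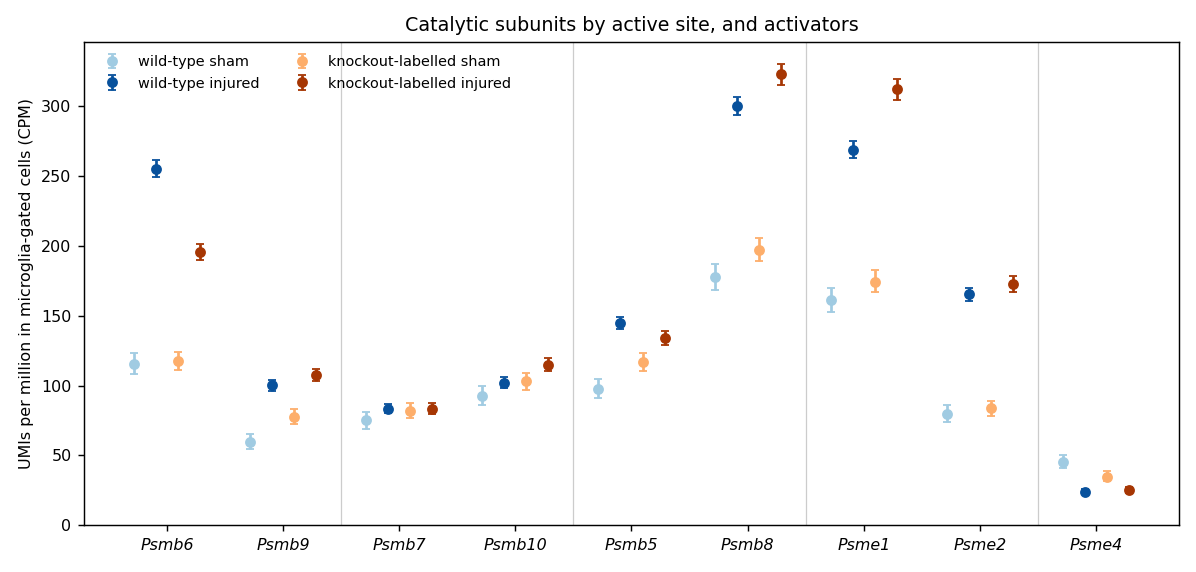
Level of the catalytic subunits, placed in pairs by active site, of both PA28 subunits and of the activator Psme4 in microglia-gated cells, in CPM. Points are single libraries and bars 95% Poisson intervals, which cover counting error only. Psmb6, Psmb8, Psme1 and Psme2 are higher in both injured libraries, Psmb7 and Psmb10 lie close together, and Psme4 is lower.

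The activator PA28 showed the highest ratios of any group. Psme1, its alpha subunit, was at 161 CPM in wild-type sham, 269 in wild-type injured, 174 in knockout-labelled sham and 312 in knockout-labelled injured cells, with injury ratios of 1.67 (1.57 to 1.77) and 1.79 (1.70 to 1.88). Psme2, its beta subunit, was at 79.6, 165, 83.6 and 173 CPM, with ratios of 2.08 (1.91 to 2.26) and 2.06 (1.92 to 2.22). The sum of both was 1.80-fold (1.72 to 1.89) and 1.88-fold (1.80 to 1.96) the sham level. Psme2b lies on chromosome 11 and closely resembles Psme2, so reads can be split between them and its value is uncertain. Psme2b also overlaps Gm12185 and 9930111J21Rik1 on the same strand. It was at 22.7, 12.6, 23.6 and 18.999 CPM, lower after injury where Psme2 was higher. Psme3, the nuclear activator PA28 gamma, was at 23.5, 17.9, 20.9 and 20.1 CPM. Psme4, the activator PA200, was at 45.2 CPM in wild-type sham, 23.9 in wild-type injured, 34.8 in knockout-labelled sham and 25.3 in knockout-labelled injured cells. The wild-type sham level was 1.89-fold (1.66 to 2.15) the injured one and the knockout-labelled sham level 1.38-fold (1.20 to 1.57).

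Of the 49 members, 44 passed the filter on low values in the wild-type comparison (at least 20 CPM in 1 of its libraries and 50 UMIs over the class). A gene was called at a log2 ratio of at least 1.5-fold with a prior of 10 CPM on both sides. In the wild type 8 members were called higher and 1 lower: Psmb6, Psme2, Psmb8, Psmd8, Psme1, Psmb9, Psmb1 and Psma7 were higher and Psme4 was lower. Of all 6279 genes that passed, 9% were called higher and 32.2% lower. Under the knockout label 45 members passed, of which 4 (Psme2, Psme1, Psmb6 and Psmb8) were called higher and 0 lower, beside 5.84% higher and 12.6% lower of all 6134 genes. The median log2 ratio of the members that passed was 0.20 in the wild type, beside -0.32 over all genes that passed, and 0.07 beside -0.22 in the knockout-labelled pair. The median gene thus lay below 0 on this scale in both pairs. Under median-of-ratios scaling, which sets the median gene near 0 (0.04 and 0.01), 20 members were called higher and 0 lower in the wild type, and 9 and 0 under the knockout label. Of all genes, 1271 were called higher and 840 lower in the wild type under this scaling, and 603 and 241 under the knockout label. The share of higher among all calls moved from 21.8 to 60.2% and from 31.7 to 71.4%.

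**Figure D2:**
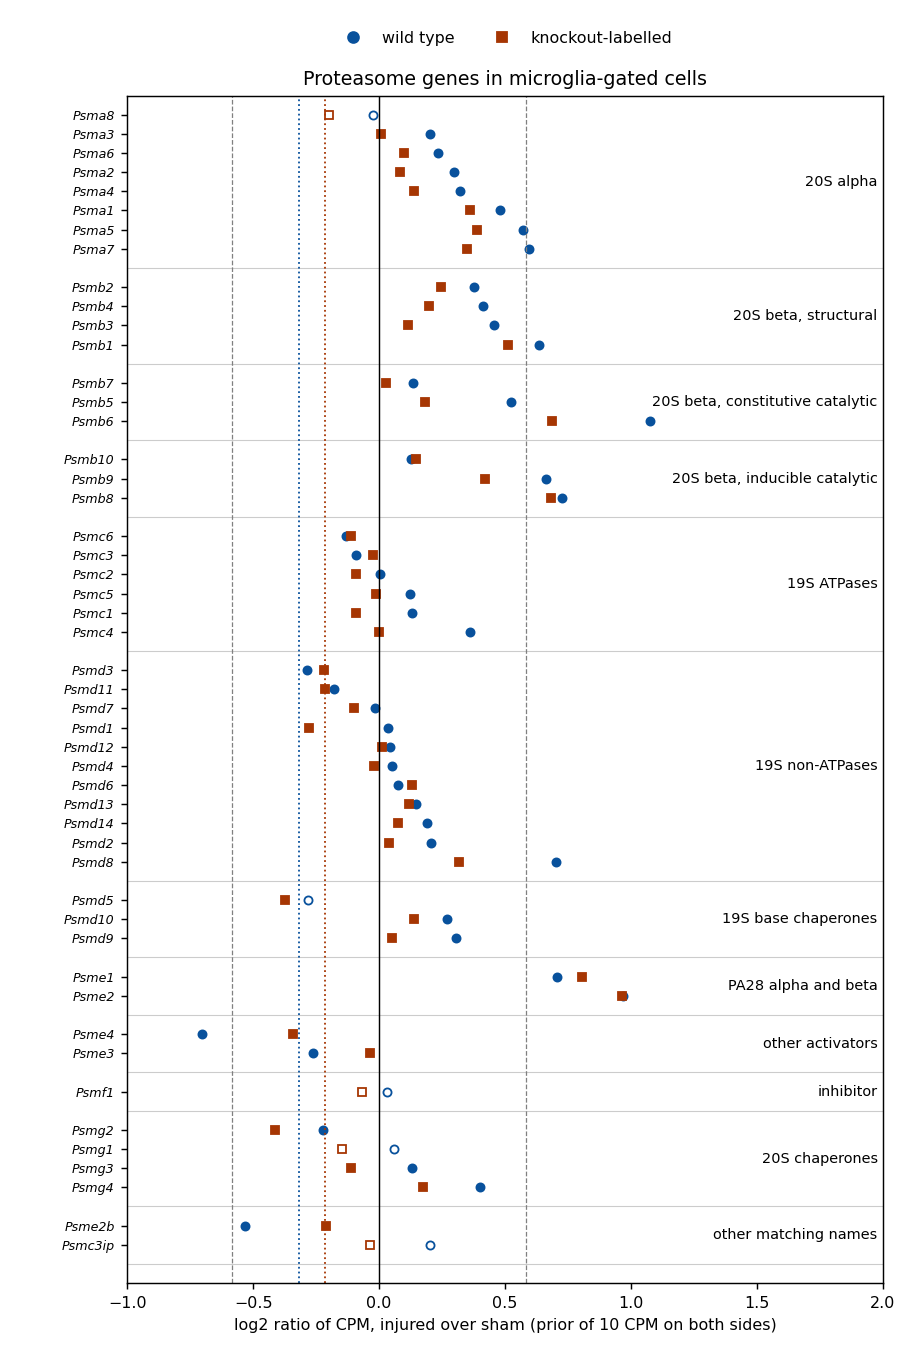
Log2 ratio of CPM, injured over sham, of each of the 49 members in microglia-gated cells, with a prior of 10 CPM. Circles are the wild-type pair and squares the knockout-labelled pair, open where the member did not pass the filter on low values. Dashed lines mark 1.5-fold, and dotted lines the median of all genes that passed. Psmb6 and Psme2 lie farthest right in the wild type (1.08 and 0.97), and Psme4 farthest left (-0.70).

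The remaining core subunits were higher together, but by less. All 7 alpha subunits that passed had injury ratios above 1 under both labels, with medians of 0.32 and 0.14 on the log2 scale, and so did the 4 structural beta subunits, with medians of 0.43 and 0.22. Psmb1, the most abundant structural subunit, was at 152, 241, 165 and 240 CPM in wild-type sham, wild-type injured, knockout-labelled sham and knockout-labelled injured cells, ratios of 1.59 (1.497 to 1.69) and 1.45 (1.38 to 1.53). Its least abundant counterpart Psmb2 was at 104, 139, 119 and 143 CPM. Psma3, the most abundant alpha subunit, was at 156, 181, 161 and 162 CPM. Psma7 was at 121, 187, 127 and 165 CPM. Psma8, the alpha subunit of germ cells, was at 4.20, 3.95, 5.73 and 3.70 CPM and did not pass the filter.

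Subunits of the regulatory particle were close to level. Of 17 subunits, 12 had a wild-type ratio above 1 and 6 a knockout-labelled one, with 1 called in the wild type and 0 in the knockout-labelled pair. Under median-of-ratios scaling 17 and 16 of the 17 lay above 1, so their direction depends on the scaling. The injury ratio of their sum lay below that of either catalytic kind, while ratios of single members overlapped. This order is the same under both scalings by construction, because a scaling factor per library shifts all genes alike. The one called was Psmd8, a lid subunit and the most abundant of the 11 non-ATPases, at 94.6, 160, 106 and 135 CPM in the same library order, with ratios of 1.69 (1.57 to 1.83) and 1.27 (1.19 to 1.36). Among the ATPases Psmc3, the most abundant, was at 100.3, 93.5, 93.9 and 92.2 CPM, and Psmc1, the least abundant, at 41.3, 46.2, 46.02 and 42.5 CPM. Psmd14, the deubiquitinase of the lid and the least abundant non-ATPase, was at 40.7, 47.9, 44.02 and 46.8 CPM. Psmd3, a lid subunit with the lowest ratio of the particle in the wild type, was at 52.2 CPM in wild-type sham and 41.0 in wild-type injured cells, a sham level 1.27-fold (1.14 to 1.42) the injured one.

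Chaperones and the inhibitor were of low level. Psmg2, a chaperone of core assembly, was at 23.6, 18.8, 29.4 and 19.5 CPM, and Psmd5, a chaperone of the base, at 19.3, 14.05, 22.1 and 14.8 CPM. Both were among the 3 lowest members of the knockout-labelled comparison, with log2 ratios of -0.41 and -0.37, neither of them called. Psmg4 and Psmd10, the most abundant of each kind, had wild-type log2 ratios of 0.40 and 0.27. Psmg1, the least abundant core chaperone, was at 14.2, 15.2, 19.7 and 16.9 CPM, and the inhibitor Psmf1 at 13.5, 14.01, 16.2 and 15.0 CPM. Neither passed the filter in either injury comparison.

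Other genes of the pathway were counted from listed genes. In the wild type 0 of 17 measured assembly factors, cofactors and regulators were called higher and 5 lower, and 0 and 3 in the knockout-labelled pair. Of all genes 32.2% and 12.6% were called lower, so these counts do not set the list apart. Their median log2 ratios, -0.41 and -0.30, lay below those of the members. The highest in the wild type were Sem1, a subunit of the regulatory particle, at 185 CPM in sham and 282 in injured cells, and Pomp, the maturation factor of the core, at 259 and 326 CPM. Nfe2l1 was at 55.8 and 25.1 CPM and Zfand5, a proteasome activator, at 414 and 209 CPM, the lowest pair in the list. Of 11 genes for class I peptide supply and loading 4 were called higher under each label and 0 lower, beside 9% and 5.84% of all genes called higher. H2-D1, a class I heavy chain, was at 700 and 1706 CPM in wild-type sham and injured cells, and H2-K1 at 695 and 1394 CPM. Tapbpl and Tap2 were the lowest of that list, at 28.7 and 17.9 CPM and at 59.6 and 41.5 CPM. Of 11 measured interferon signalling genes 3 were called higher and 3 lower in the wild type, and 3 and 1 in the knockout-labelled pair, beside the same shares of all genes. Irf7 was highest, at 5.07 CPM in wild-type sham and 79.02 in wild-type injured cells. Ifngr1, the interferon gamma receptor, was lowest at 560 and 256 CPM, then Jak1 at 260 and 136 CPM.

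The inducible share of catalytic UMIs (Psmb8, Psmb9 and Psmb10 over these and Psmb5, Psmb6 and Psmb7) does not depend on scaling between libraries. In microglia-gated cells it was 53.3% (51.9 to 54.7) in wild-type sham, 50.9% (50.3 to 51.5) in wild-type injured, 54.5% (53.3 to 55.6) in knockout-labelled sham and 56.9% (56.2 to 57.6) in knockout-labelled injured cells. The injured minus sham difference was thus -2.39 points in the wild type and 2.46 points under the knockout label. The wild-type direction turned when deep cells counted for less: it was 1.63 points with each cell weighted equally, 1.77 points with each cell thinned to 2000 UMIs, and 3.11 points in cells of 8000 to 16000 UMIs. In cells with both a Sall1 and a Siglech UMI, where the monocyte markers summed to 402 and 4791 CPM, it was 1.01 points. The 3 sites differed. The Psmb9 share of Psmb9 and Psmb6 was 34.0% in sham and 28.2% in injured cells of the wild type and 39.8 and 35.5% in the knockout-labelled pair. This lower share depended on the cells and their weight: in cells of 8000 to 16000 UMIs it was 31.4 and 31.7% in the wild type and 38.6 and 39.3% under the knockout label. With equal weight or thinning the wild-type difference was 0.49 and 1.19 points and the knockout-labelled one -2.85 and -6.10 points. The Psmb8 share of Psmb8 and Psmb5 was higher after injury under both labels, at 64.5 and 67.4% and at 62.8 and 70.7%, and stayed so under each alternative choice or weight of cells, by 2.83 to 7.48 points in the wild type and 7.44 to 9.57 points under the knockout label. The Psmb10 share of Psmb10 and Psmb7 lay between 55.01 and 57.9% in all microglia-gated cells of the 4 libraries. Under the alternatives it lay between 54.5 and 59.8%. Its wild-type injured minus sham difference was -0.26 points, but 2.69 in cells of 8000 to 16000 UMIs and 2.82 with equal weight. Single microglia-gated cells with at least 10 catalytic UMIs were 22.3% of wild-type sham and 47.5% of wild-type injured cells. In the knockout-labelled pair they were 20.7 and 37.1%. Their median share was 53.8% in wild-type sham and 55.6% in knockout-labelled sham cells. After injury it was 50% in wild-type injured and 57.1% in knockout-labelled injured cells. The 10th and 90th percentiles were 30.4 and 72.2% in the former and 36.4 and 78.3% in the latter, a spread that includes the counting error of few UMIs.

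**Figure D3:**
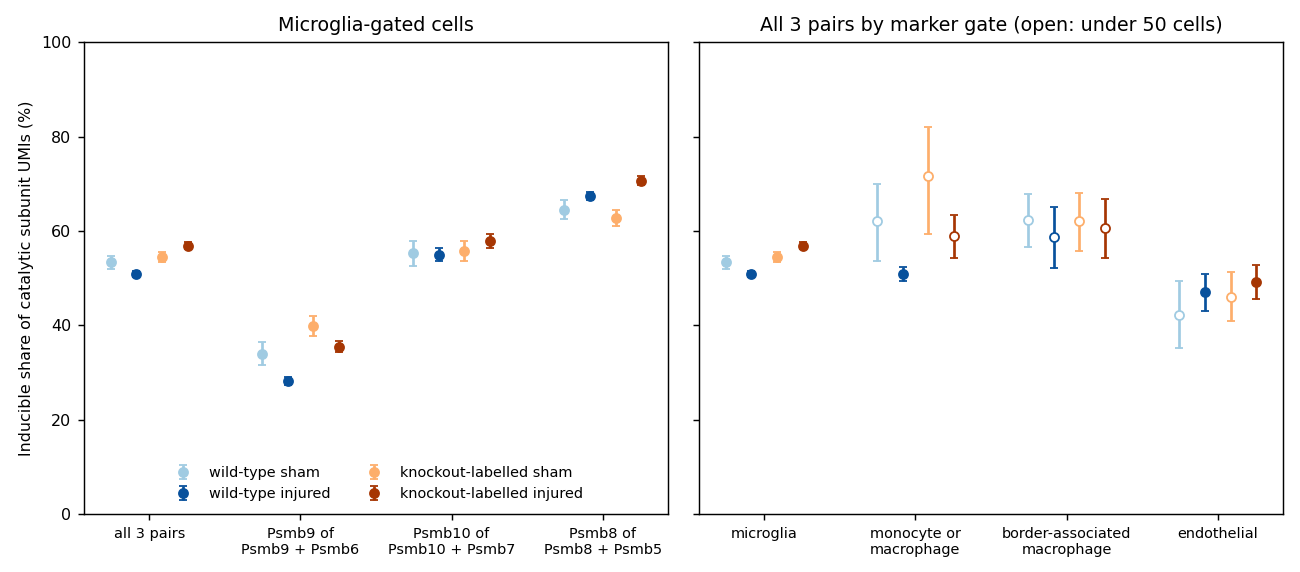
Inducible share of catalytic subunit UMIs in percent, in microglia-gated cells for all 3 pairs and for each pair (left) and for all 3 pairs by marker gate (right). Points are single libraries, open where the gate holds under 50 cells, and bars are 95% Clopper-Pearson intervals. The order of the pairs, with Psmb9 lowest and Psmb8 highest, is the same in the 4 libraries, and endothelial-gated cells have the lowest shares of the 4 gates shown in each library.

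Between the injured libraries, the knockout-labelled one had a lower summed constitutive and a higher summed inducible level in CPM. The wild-type constitutive sum was 1.17-fold (1.14 to 1.20) the knockout-labelled one, whereas the knockout-labelled inducible sum was 1.09-fold (1.06 to 1.11) and its PA28 sum 1.12-fold (1.09 to 1.15) the wild-type one. None of the 42 members that passed reached 1.5-fold (0 higher, 0 lower), beside 2.2% higher and 2.51% lower of all 5456 genes. Psmb6 was lowest, its wild-type level 1.31-fold (1.26 to 1.36) the knockout-labelled one, followed by Psmd1 (1.22-fold, 1.14 to 1.31), the scaffold subunit of the base, and Psmd8 (1.19-fold, 1.14 to 1.25). Psme1, Psmd3 and Psmb10 were highest, at 1.16-fold (1.12 to 1.20), 1.17-fold (1.07 to 1.27) and 1.13-fold (1.07 to 1.19) the wild-type level. Median-of-ratios scaling moved the median of all genes from 0.10 to -0.02 on the log2 scale and the inducible difference from 0.12 to -0.02, so the direction of the inducible sum depends on the scaling, while the constitutive one went from -0.23 to -0.36. It also moved the share of higher among all calls from 46.7 to 23.0%.

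Between the sham libraries, 40 of the 45 members that passed were higher under the knockout label, by a median of 0.11 on the log2 scale beside -0.003 over all genes. None was called (0 higher, 0 lower), where 0.13% of all 6153 genes were called higher and 0.878% lower. Psmb9 was highest at 1.30-fold (1.17 to 1.46), followed by Psmc4, an ATPase, at 1.24-fold (1.10 to 1.40) and the core chaperone Psmg3 at 1.31-fold (1.06 to 1.62). Psme4, Psme3 and Psmc3 were lowest, with wild-type levels 1.30-fold (1.12 to 1.503), 1.12-fold (0.922 to 1.37) and 1.07-fold (0.972 to 1.17) the knockout-labelled ones. The injury comparisons and the comparisons between labels share libraries, so they are not independent of each other.

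Both kinds of catalytic subunit varied along different states of injured microglia. State was read from 9 interferon markers (Ifit1, Ifit2, Ifit3, Rsad2, Cxcl10, Usp18, Oasl2, Slfn5, Isg15) and from 6 markers of a lipid and phagocytic state (Lpl, Cst7, Itgax, Spp1, Igf1, Gpnmb), none of which is a member. From cells with 0 interferon markers to cells with 5 or more, the inducible sum went from 435 to 602 CPM in the wild-type injured library, 1.38-fold (1.31 to 1.46), and from 447 to 696 CPM in the knockout-labelled injured one, 1.56-fold (1.48 to 1.65). PA28 went from 361 to 514 CPM and from 382 to 569 CPM. Psmb9 had the highest ratio of the catalytic genes, 1.57 (1.39 to 1.79) and 1.74 (1.54 to 1.97). The constitutive sum went from 404 to 511 CPM, 1.26-fold (1.19 to 1.34), and from 377 to 427 CPM, 1.13-fold (1.07 to 1.21), and the regulatory particle from 1214 to 1332 CPM and from 1231 to 1270 CPM. The constitutive sum was also read with both lists crossed, at 0 or 1 and at 4 or more interferon markers. With 0 or 1 Lpl and Cst7 markers it was 301 (277 to 326) and 350 CPM (283 to 429) in the wild type. Under the knockout label it was 331 and 337 CPM. With 4 or more Lpl and Cst7 markers it was 525 and 553 CPM in the wild type and 530 and 482 under the knockout label.

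Along the Lpl and Cst7 list the constitutive sum had the highest ratio of the summed groups. From 0 markers to 5 or more, the constitutive sum went from 349 to 563 CPM in the wild-type injured library and from 329 to 531 CPM in the knockout-labelled one, 1.61-fold in each (1.42 to 1.84 and 1.499 to 1.74). Psmb6 carried most of it, at 144 and 315 CPM, 2.18-fold (1.79 to 2.70), and at 136 and 290 CPM, 2.13-fold (1.91 to 2.37). Psmd8, the called subunit of the regulatory particle, went the same way, at 86.8 and 187 CPM and at 116 and 171 CPM. The whole regulatory particle was 1.27-fold (1.18 to 1.37) and 1.21-fold (1.16 to 1.26) higher. The rest of the core was 1.26-fold (1.18 to 1.35) and 1.22-fold (1.17 to 1.26) higher. The PA28 subunits differed: Psme2 was 1.39-fold (1.11 to 1.75) and 1.45-fold (1.29 to 1.63). The more abundant Psme1 was 0.988-fold and 0.943-fold, with intervals that include 1 in both libraries. The PA28 sum was 1.12-fold and 1.10-fold. The inducible sum was 502 and 477 CPM, 0.951-fold (0.852 to 1.06), and 510 and 571 CPM, 1.12-fold (1.05 to 1.19). The inducible share therefore went from 59.0% (54.9 to 63.0) to 45.9% (45.0 to 46.8) in the wild-type and from 60.8% (59.0 to 62.5) to 51.8% (50.2 to 53.4) in the knockout-labelled injured cells.

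Depth rose with the markers detected, from a median of 5267 UMIs per cell with 0 Lpl and Cst7 markers to 19337 with 5 or more in the wild type. In cells of 8000 to 16000 UMIs the constitutive sum was 333 CPM with 0 or 1 such marker and 467 with 4 or more in the wild type, and 335 and 459 CPM under the knockout label. Along the same list the inducible sum at this depth was 440 CPM with 0 or 1, 560 with 2 or 3 and 507 with 4 or more markers in the wild type, and 522, 585 and 574 CPM under the knockout label. The inducible sum at this depth was 450 CPM with 0 or 1 interferon marker and 651 with 4 or more in the wild type, and 456 and 705 CPM under the knockout label. The part of the remaining difference in depth within these ranges was not tested. Both lists were also crossed, over cells of all depths. The share was then lowest in injured cells with 4 or more Lpl and Cst7 and 0 or 1 interferon markers. It was 44.7% (43.1 to 46.2) in the wild type and 46.8% (44.3 to 49.2) under the knockout label, at median depths of 13763.5 and 13115 UMIs. It was highest in cells with the reverse, at 64.1% (58.0 to 69.9) and 67.4% (65.2 to 69.6), of which the wild-type library had 40. Median depths of the latter were 6893.5 and 8790.5 UMIs, so this contrast is not matched for depth.

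**Figure D4:**
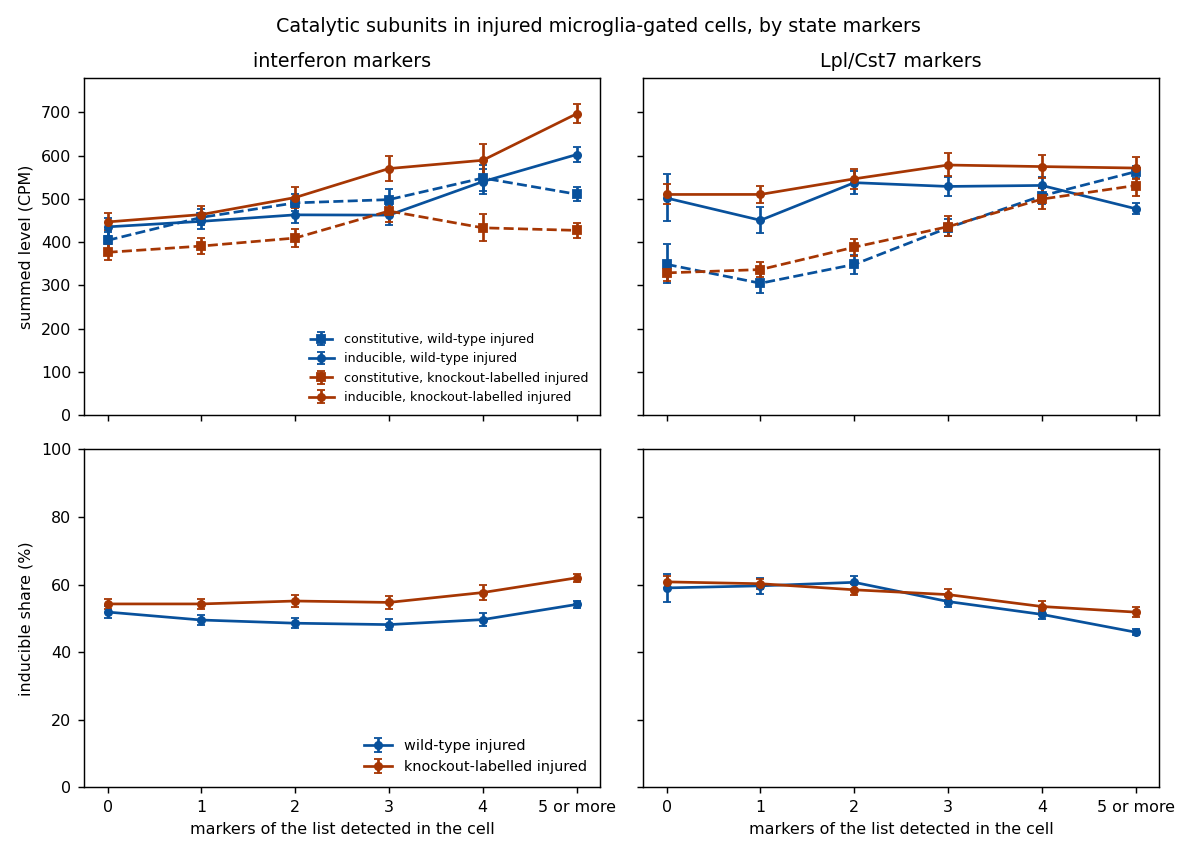
Summed level of constitutive (squares, dashed) and inducible (circles, solid) catalytic subunits in CPM (top) and inducible share in percent (bottom) in injured microglia-gated cells, by the number of interferon markers (left) and Lpl and Cst7 list markers (right) detected in the cell. Each line is 1 library, and bars are 95% intervals of counting error. Inducible levels climb with interferon markers to 602 and 696 CPM, and constitutive levels with the other list to 563 and 531 CPM.

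The injured libraries differed in these states: 42.5% (40.5 to 44.6) of wild-type and 16.6% (15.1 to 18.2) of knockout-labelled injured microglia-gated cells had at least 4 Lpl and Cst7 markers, and 26.2% (24.4 to 28.1) and 22.8% (21.03 to 24.6) at least 4 interferon markers. At the same number of Lpl and Cst7 markers, the constitutive sum was higher under the knockout label in 3 of 6 bins. The inducible sum was higher there in 6 of 6 and the inducible share in 5 of 6. In the bin of 4 markers, for instance, the constitutive sums were 507 CPM in the wild-type and 499 in the knockout-labelled library and the inducible sums 531 and 575 CPM. At the same number of interferon markers the constitutive sum was higher under the knockout label in 0 of 6 bins. The inducible sum and the inducible share were each higher in 6 of 6. The sums in bins are in CPM and were not rescaled. Over all microglia-gated cells median-of-ratios scaling moved the inducible log2 ratio between these libraries from 0.12 to -0.02. It moved the constitutive one from -0.23 to -0.36. The counts of bins with a higher inducible or constitutive sum, other than the 0 of 6, therefore depend on the scaling, whereas the share does not. Bins are groups of cells of the same 2 mice and not replicates. Whether the difference in the make-up of states accounts for the difference between libraries was not tested.

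Cycling cells, read from 8 cell cycle markers, had higher summed levels and were deeper. In the 63 wild-type injured cells with 5 or more of these markers the constitutive sum was 654 CPM, the inducible sum 573 CPM and the regulatory particle 1712 CPM, beside 438, 487 and 1216 CPM in cells with none. In the knockout-labelled library 27 such cells had 639, 753 and 1742 CPM, beside 386, 533 and 1212 CPM. Their median depth was 22315 and 21248 UMIs, beside 8667 and 8334. In cells of 8000 to 16000 UMIs only 11 wild-type and 6 knockout-labelled injured cells had 4 or more of the markers. In the 11 the constitutive sum was 596 CPM and the inducible sum 775, beside 422 and 517 with 0 or 1, while PA28 was at 481 beside 472 and Psmb10 at 50.3 beside 109 CPM.

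Monocyte or macrophage-gated cells of the wild-type injured library (313 cells) were near microglia in both kinds of catalytic subunit and lower in PA28. Their constitutive sum was 472 CPM and their inducible sum 488 CPM, 0.977-fold and 0.974-fold the microglial level of the same library, while PA28 was at 338 CPM beside 434. The inducible share was 50.9% (49.4 to 52.3). Of these cells 55.9% lay at or next to the gate's limit, and microglia markers summed to 665 CPM in them. The same gate in the knockout-labelled injured library held 48 cells and a share of 59.0% (54.3 to 63.5).

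Endothelial-gated cells, which the CD11b selection should remove and which numbered 81 in the wild-type and 126 in the knockout-labelled injured library, had higher summed levels of the regulatory particle and of the constitutive catalytic subunits than microglia. The regulatory particle was at 2195 and 2025 CPM, 1.69-fold and 1.62-fold the microglial level, and the constitutive sum at 619 and 568 CPM, 1.28-fold and 1.38-fold. Their inducible share, 47.0% (43.2 to 50.9) and 49.2% (45.7 to 52.8), was made up of other levels of its genes. Psmb10 was at 198 and 202 CPM, 1.94-fold and 1.76-fold the microglial level, and Psmb8 at 230 and 238 CPM, below the microglial 300 and 323. Border-associated macrophage-gated cells, 38 to 49 per library, had shares of 58.8 to 62.4% in the 4 libraries, with intervals that overlap each other. Of those 4, each under 50 cells, no injury comparison was made.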

How the data were processed

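CD11b-selected brain cells of 4 mice were profiled, 1 library each. The deposited UMI counts come from Cell Ranger 6.0.1, per the file headers, and the reference was mm10, per the submitters' processing notes. The sources used here name no annotation release and no strand setting. Barcodes were kept that had 500 or more genes, 1000 or more UMIs and no more than 10% mitochondrial UMIs, which left 992 to 2996 per library. Doublets were scored with Scrublet (scanpy 1.11.5), and the top-scored barcodes were left out at 0.8% per 1000, 30 to 113 per library. A cell was gated to the marker list of which it held the largest share, with at least 3 markers detected and ties ungated. Over the 4 libraries 6286 cells were microglia-gated and 429 ungated.

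UMIs were summed per class and library and scaled to CPM. Poisson (levels), conditional binomial (ratios) and Clopper-Pearson (shares) intervals are exact, at 95%, and cover counting error only. For the catalytic and PA28 genes in microglia-gated cells the Poisson bounds lay at most 9.34% from the level. Log2 ratios of single genes have a prior of 10 CPM, and those of sums have none. The calls and the ratio and share intervals were tested on simulated counts. These held only the counting error that the intervals assume, with no differences between mice or cells. No p-value was computed.

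Named were the catalytic and PA28 genes, the 3 highest and 3 lowest members that passed the filter in each comparison, the most and least abundant member of each kind, and the 2 highest and 2 lowest genes of each other pathway list in the wild-type injury comparison. Some genes this rule names, and the ubiquitin list, are not reported here. Outside this rule Psma7 was named because it was called, and the state values of Psmd8 and the 4 printed promoters were chosen after the calls and motif matches were seen. The members and gene lists were chosen with earlier results of these data known. Alternatives covered the cell filter, doublets, gate, weight and depth of cells, scaling, prior, fold and filter on low values.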

Additional observations from a re-analysis of the deposited data

Results flagged for a closer look

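In microglia-gated cells the inducible share of catalytic UMIs was lower in injured than in sham cells of the wild type, and higher under the knockout label. It differed by -2.39 percentage points between wild-type injured and sham cells and by 2.46 points between knockout-labelled injured and sham cells. The difference between these injury effects was not tested, since each group is 1 mouse. The wild-type value turned positive under 4 other ways of choosing or weighting cells. By site, the Psmb8 share was higher in injured cells under both labels in each alternative. The Psmb10 share differed by -0.26 and 2.16 points, with wild-type values of 2.69 in cells of 8000 to 16000 UMIs and 2.82 with equal weight. The Psmb9 share was lower by the main count but not in cells of 8000 to 16000 UMIs, nor in the wild type with equal weight or thinning.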

How the results depend on the processing

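Each group is 1 library, so leaving out a replicate was not run. No paired analysis was possible because the labels give no replicate number that groups share; a fit of injury over both genotype labels was not run. A minimum of 2000 UMIs per cell, no doublet removal, a gate of 2 or 4 markers, no filter on low values, a mitochondrial limit of 20% and leaving out shared barcodes moved no share or sum of members beyond its counting interval and no count of called members by over 1.5 times. The alternatives on mitochondria, shared barcodes, markers of other lists, 8000 to 16000 UMIs, and Sall1 and Siglech were chosen after seeing the data.

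Sums are given as log2 ratios. Median-of-ratios scaling gave 20 members higher and 0 lower in the wild type and 9 higher in the knockout-labelled pair. Of all genes it gave 1271 higher and 840 lower in the wild type and 603 higher in the knockout-labelled pair. Its wild-type sums were 1.15 (constitutive), 1.01 (inducible), 1.25 (PA28) and 0.51 (regulatory particle). Its knockout-labelled sums were 0.65, 0.79, 1.17 and 0.24. Between injured libraries it gave -0.36, -0.017 and 0.022 for the constitutive, inducible and PA28 sums. A 2-fold limit left 1 member higher and 0 lower in the wild type and 0 higher in the knockout-labelled pair. A prior of 1 CPM gave 2 lower members in the wild type. Shares of all genes called at this limit or prior are not given, so these counts have no background beside them.

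With each cell weighted equally the shares were 54.1% (wild-type injured) and 58.4% (knockout-labelled injured), and the wild-type difference reversed to 1.63 points. The wild-type constitutive and regulatory sums were 0.53 and 0.022, the knockout-labelled constitutive sum 0.30, and the constitutive and inducible sums between injured libraries -0.17 and 0.079. Thinned to 2000 UMIs, with 68 to 121 shallower cells left out per library, the shares were 54.01% (wild-type injured), 55.7% (knockout-labelled sham) and 58.8% (knockout-labelled injured), and the wild-type difference reversed to 1.77 points. Without a gate the knockout-labelled shares were 52.7% (sham) and 56.2% (injured).

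In cells of 8000 to 16000 UMIs the shares were 51.9% (wild-type sham), 55.0% (wild-type injured) and 59.4% (knockout-labelled injured), with differences of 3.11 points, reversed, in the wild type and 5.13 under the knockout label. The wild-type constitutive, inducible and regulatory sums were 0.54, 0.72 and 0.044, the knockout-labelled constitutive and regulatory sums 0.22 and -0.075, the constitutive and PA28 sums between injured libraries -0.17 and 0.071, and the inducible sum between sham libraries 0.29. The injured minus sham difference of the Psmb9 share reversed to 0.28 points (wild type) and 0.77 points (knockout label) there, and in the wild type to 0.49 with equal weight and 1.19 with thinning. In cells with Sall1 and Siglech the wild-type injured share was 53.9% and the wild-type difference reversed to 1.01 points. There the wild-type constitutive, inducible, PA28 and regulatory sums were 0.61, 0.67, 0.97 and 0.070, and between injured libraries the constitutive, inducible and PA28 sums were -0.12, 0.069 and 0.058. Without cells that held 3 markers of another list PA28 was 0.94 in the wild type and 0.11 between injured libraries. The cause of these moves was not tested. Counting depth limits genes under 20 CPM, which were not called.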
